A study of Mus musculus with 12 samples.

Results

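Oxidative phosphorylation transcripts were followed in 3 groups of cells sorted from hind limb muscle of C57BL/6J mice aged 8 to 12 weeks. The members were all probe sets of Affymetrix Mouse 430A arrays that the platform annotation assigned to exactly 1 gene whose symbol began with Nduf, Sdha to Sdhd, Uqcr, Cox4 to Cox8 or Atp5. This gave 160 of the 20380 probe sets with 1 gene, for 87 of 12393 genes. Another 7 probe sets matched by symbol but were assigned to several genes and were left out.

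Satellite cells are the resident stem cells of skeletal muscle, and SM/C-2.6 is a monoclonal antibody that binds them. The quiescent group (QSC, 4 arrays) held SM/C-2.6-positive cells taken right after the sort, of which over 97% were Pax7-positive per the labels. The activated group (ASC, 4 arrays) held SM/C-2.6-positive cells grown for 4 days in DMEM with 20% fetal calf serum and 2.5 ng/ml bFGF, of which over 99% were MyoD-positive. The non-myogenic group (NMC, 4 arrays) held SM/C-2.6-negative, CD45-negative cells taken right after the sort, with under 1% myogenic cells. No group carried a transgene, deletion or drug in the labels, and culture time, serum and growth factor cannot be told apart from the activated state. The labels name no animals, so p-values measure the spread between these arrays, which may be technical.

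Oxidative phosphorylation takes place in the inner mitochondrial membrane. Complexes I (NADH dehydrogenase) and II (succinate dehydrogenase) feed electrons to ubiquinone, complex III passes them to cytochrome c, complex IV (cytochrome c oxidase) hands them to oxygen, and complex V (ATP synthase) makes ATP from the proton gradient that complexes I, III and IV build. A few subunits of complexes I, III, IV and V are encoded by mitochondrial DNA, and the nuclear genes described here encode the rest. Skeletal muscle fibres depend on this pathway and use muscle isoforms of some complex IV subunits, while quiescent satellite cells are known as cells with few mitochondria.

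By role, the members were 33 complex I subunit genes with 67 probe sets, 5 complex I assembly factor genes (Ndufaf, 6 probe sets), 4 complex II subunit genes (7), 3 complex II assembly factor genes (Sdhaf, 4), 8 complex III genes (15), 17 complex IV genes (33) and 17 complex V genes (28). Ndufa4 was counted with complex IV, where its product is now placed. For 41 genes there was 1 probe set and for 46 there were several, up to 6. A gene was represented by the probe set that was brightest on average over the 12 arrays (log2 scale). Of the 87 genes, 84 reached the minimum mean signal for testing, and the complex IV genes Cox4i2, Cox6b2 and Cox8b did not. Signals of different probe sets are not on a common scale and are not set against each other.

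Promoter sequences are shown for 5 genes around which the results turn: Sdhd and Atp5g1, with the largest rises in activated cells, Atp5g2, which encodes the same c subunit as Atp5g1, Ndufaf4, with the largest rise among the complex I assembly factors, and Cox7a1, a muscle isoform. Each is the 250 bases before the gene's first start in RefSeq (GRCm38.p6), on the strand of the gene. Capitals mark matches, on either strand, to letters known from promoters of respiratory genes: the palindromic NRF1 core, exact or with 1 open base in it, CCGGAAG (ETS factors such as GABP), AAGATGGC (YY1), TCAAGGTCA (ERR alpha) and CCAAT (NF-Y). The NRF1 core with the open base includes the exact core, and matches that overlap run together in the capitals.
Sdhd, chr9:50603850-50604099, minus strand: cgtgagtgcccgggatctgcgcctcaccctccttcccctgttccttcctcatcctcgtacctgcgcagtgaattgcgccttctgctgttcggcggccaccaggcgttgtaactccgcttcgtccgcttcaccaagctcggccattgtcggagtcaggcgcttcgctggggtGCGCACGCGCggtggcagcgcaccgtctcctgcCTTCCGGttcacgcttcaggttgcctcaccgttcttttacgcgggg
Atp5g1, chr11:96075632-96075881, minus strand: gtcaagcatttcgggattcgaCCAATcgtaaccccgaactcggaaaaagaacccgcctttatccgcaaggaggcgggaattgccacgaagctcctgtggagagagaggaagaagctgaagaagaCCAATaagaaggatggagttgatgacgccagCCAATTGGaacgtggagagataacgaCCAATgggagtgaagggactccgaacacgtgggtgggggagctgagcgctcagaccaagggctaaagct
Atp5g2, chr15:102671048-102671297, minus strand: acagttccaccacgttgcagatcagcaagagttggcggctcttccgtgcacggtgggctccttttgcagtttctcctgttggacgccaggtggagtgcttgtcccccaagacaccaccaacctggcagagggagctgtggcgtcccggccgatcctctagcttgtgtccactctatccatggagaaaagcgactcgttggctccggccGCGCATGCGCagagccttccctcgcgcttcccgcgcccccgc
Ndufaf4, chr4:24897833-24898082, plus strand: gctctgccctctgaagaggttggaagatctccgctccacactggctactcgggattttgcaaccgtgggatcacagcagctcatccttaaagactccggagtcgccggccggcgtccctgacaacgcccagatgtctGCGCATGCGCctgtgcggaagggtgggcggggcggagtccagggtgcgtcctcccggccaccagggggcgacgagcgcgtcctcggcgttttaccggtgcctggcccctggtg
Cox7a1, chr7:30183921-30184170, plus strand: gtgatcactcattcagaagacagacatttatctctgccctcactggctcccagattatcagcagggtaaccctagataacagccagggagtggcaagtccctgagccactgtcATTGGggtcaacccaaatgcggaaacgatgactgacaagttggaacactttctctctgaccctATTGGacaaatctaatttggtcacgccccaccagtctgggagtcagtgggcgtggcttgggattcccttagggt
The Sdhd stretch held 1 NRF1 match with the open base and 1 ETS match, and the Ndufaf4 and Atp5g2 stretches held 1 exact NRF1 match each. The Atp5g1 stretch held 5 CCAAT matches and none of the other letters, although Atp5g1 and Atp5g2 encode the same mature protein. The Cox7a1 stretch held 2 CCAAT matches. A RefSeq promoter of 300 bases, 250 before and 50 after the start, was found for 73 of the 87 genes, with its start in the same table. The exact NRF1 core lay in 6 of the 73 (8.22%: Ndufaf4, Ndufaf5, Uqcrc1, Cox6a1, Atp5g2 and Atp5k), against 1.61% of the first promoters of the 9882 genes on the array that had one and 0.971% of all 32851 promoters. The form with 1 open base lay in 21.9% against 8.63% and 4.60%, the ETS letters in 26.0% against 15.0% and 8.86%, the YY1 letters in 11.0% against 3.98% and 2.75%, the ERR alpha letters in 2.74% against 0.283% and 0.423%, and CCAAT in 39.7% against 38.1% and 37.4%. These shares describe letters in a window and are not binding sites. The YY1 letters lay in 6 of 30 complex I promoters, 0 of 3 of complex II, 0 of 5 of complex III, 0 of 12 of complex IV and 2 of 15 of complex V. All 6 complex I matches began 22 to 38 bases after the start.

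The arrays were labelled with 2 kits, a small-sample kit for replicates 1 and 2 of QSC and ASC and for replicate 1 of NMC (5 arrays), and a two-cycle kit for the other 7. The kit was therefore a term of the main fits, and values within each kit are given where they differ. Some alternative fits and the tests of isoform ratios had no kit term. Deposited signals lay at different levels between arrays, with trimmed means of 160 to 502, and were scaled to 1 level. The ratio of 3′ to 5′ Gapdh signal, a measure of RNA and amplification quality, was 4.02 ± 0.97 (SD, n = 4) in quiescent, 1.75 ± 0.41 in activated and 3.87 ± 0.92 in non-myogenic arrays; its part in the results was not tested. Satellite cell markers summed to a scaled signal of 13337 to 19415 in quiescent, 1711 to 2195 in activated and 3862 to 4398 in non-myogenic arrays, where Pax7 was at 4.07 and Cd34, also an endothelial and fibroblast gene, made up 3448. Myoblast markers summed to 1859 to 2776, 10202 to 14431 and 320 to 461. Mature myofibre markers (15 of 15 measured) summed to 3976 to 12332 in quiescent and 14398 to 44497 in non-myogenic arrays; in activated cells they summed to 16359 and 17372 on the 2 small-sample arrays but to 1971 and 2094 on the 2 two-cycle arrays, so those pairs stood apart. Endothelial markers summed to 3280 to 5539, 75.6 to 148 and 15379 to 17681, fibroblast markers to 12105 to 21891, 1343 to 1796 and 36215 to 70367, and pericyte and smooth muscle markers to 6081 to 9034, 2267 to 5265 and 10469 to 23028, in the same order of groups. Leukocyte markers stayed at 560 or less, erythroid markers at 39.2 or less outside the non-myogenic arrays (276 to 894), and brown adipocyte markers at 18.8 or less. In such bulk samples, fewer cells of a type and less RNA per cell cannot be told apart.

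The comparison of activated with quiescent satellite cells addresses which transcripts accompany the exit from quiescence into culture. Most respiratory genes rose. Of the 84 tested members, 63 rose (75.0%) and 6 fell, while 15 did not pass, at a Benjamini-Hochberg adjusted p under 0.05 from limma over 7960 genes. The background was high in this comparison: 70% of all tested genes were called, 31.8% higher and 38.2% lower. The median log2 difference of the members was 0.79 (0.64 and 0.85 with either kit's arrays alone, small-sample first), and that of all tested genes was -0.11. A rise of at least 2-fold was called for 29 members, against 15.9% of all genes, and a fall of that size for 1, against 21.6%. That fall was of Cox7c, which had to differ when tested, as given below. In 51 members no activated array fell within the quiescent range or the reverse, against 53.4% of all genes. Without the 2 small-sample activated arrays, which held the myofibre markers, 58 members rose and 6 fell, with a median of 0.82. In the same comparison all 10 endothelial and all 7 tested fibroblast markers fell, and their part in the result was not tested.

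**Figure D1:**
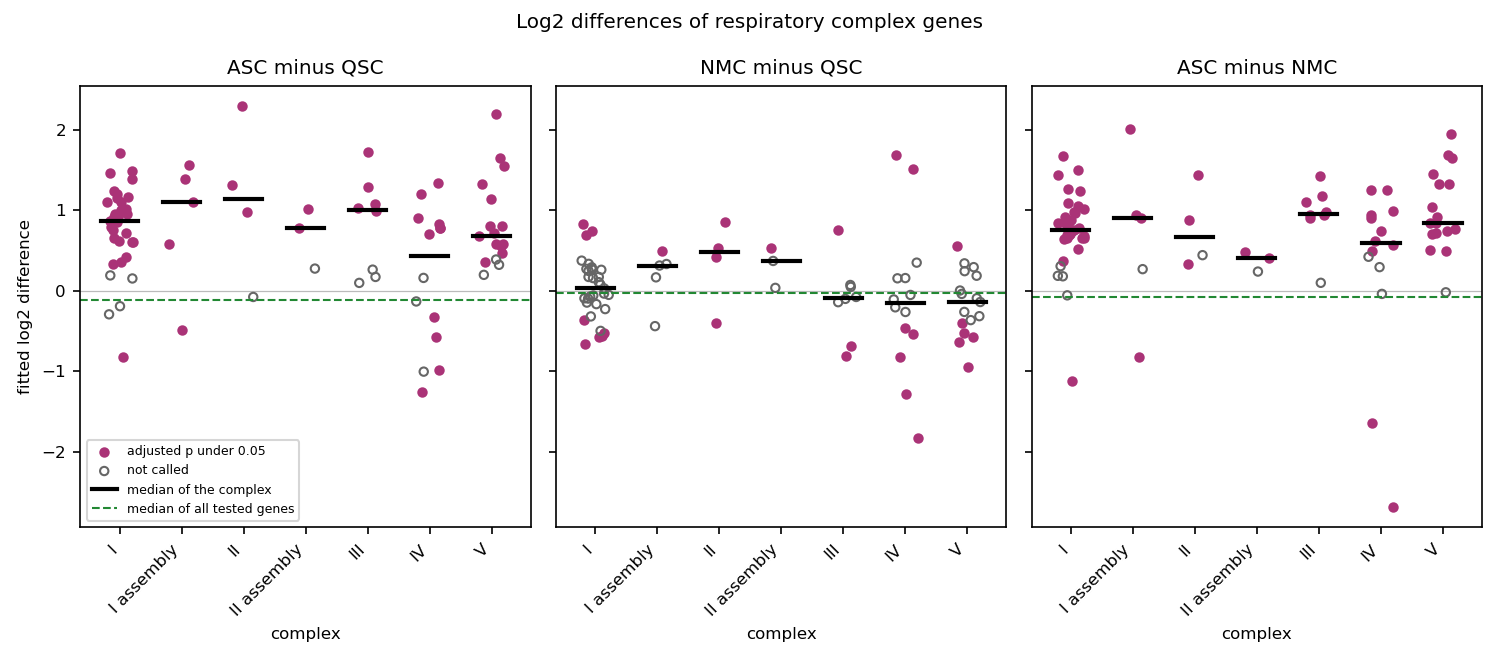
Fitted log2 differences (y axis) of the 84 tested genes, grouped by complex (x axis), for the 3 comparisons; each point is a gene, filled where the adjusted p was under 0.05, black bars are complex medians and the dashed line is the median of all 7960 tested genes. Most points of ASC minus QSC and of ASC minus NMC lie above 0, while NMC minus QSC spreads around 0, with complex IV holding the lowest points in all 3 panels.

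Per array, the median log2 signal over the tested members was 9.99, 9.70, 9.64 and 9.96 in quiescent cells, 10.73, 10.63, 10.88 and 10.93 in activated cells, and 9.56, 9.93, 10.15 and 9.80 in non-myogenic cells. The lowest activated array was above the highest array of either other group, and quiescent and non-myogenic arrays overlapped. Over all tested genes the same median lay between 7.82 and 8.16 on every array. For complex IV the quiescent arrays had a median of 10.70 ± 0.10 (SD, n = 4) and the activated arrays 11.20 ± 0.13, and for complex II these were 9.59 ± 0.34 and 11.10 ± 0.06.

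**Figure D2:**
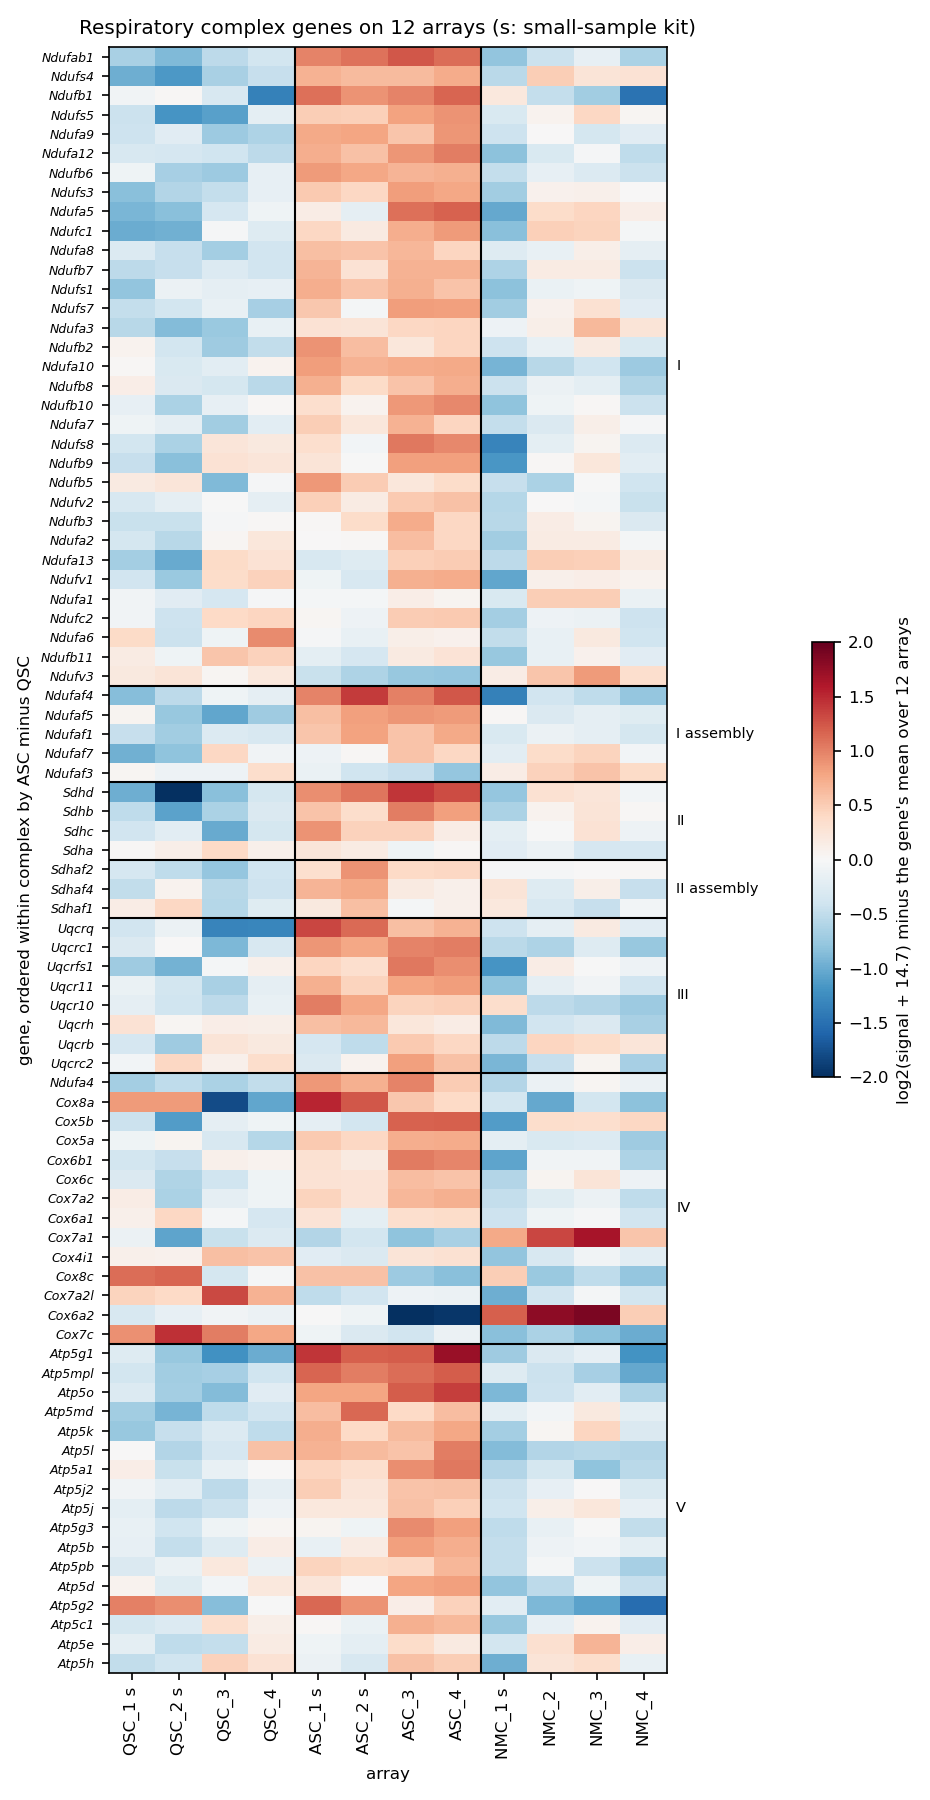
Heat map of log2(signal + 14.7) minus each gene's mean over the 12 arrays (colour scale, log2 units, with values beyond 2 in either direction shown in the end colour) for the 84 tested genes (rows, by complex and then by their difference between ASC and QSC) on each array (columns; s marks the small-sample kit). The ASC columns are red for most rows. Among the exceptions are Ndufv3 at the foot of complex I and Ndufaf3 at the foot of its assembly factors. At the foot of complex IV, Cox7c, Cox7a2l and Cox7a1 lie below the row mean on the ASC arrays, and Cox6a2 does so clearly on the two-cycle ones. Cox8c and Cox4i1, in the same place, lie on both sides of it by kit.

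In complex I, 28 of 33 genes rose, Ndufv3 fell and 4 did not pass, with a median log2 difference of 0.86. All 6 measured genes of the catalytic core (Ndufs1, Ndufs3, Ndufs7, Ndufs8, Ndufv1 and Ndufv2), most of whose products bind the flavin or iron-sulfur clusters, rose, by log2 differences of 0.33 to 1.15. Ndufs3 had 606.5, 720.6, 781.7 and 975.7 in quiescent cells and 1570, 1466, 1964 and 1872 in activated cells. Its groups were clear of each other, a 2.22-fold rise (log2 1.15 ± 0.14 SE, adjusted p 5.37e-06, limma). Ndufv1, the flavoprotein gene, had the smallest core rise: 1295, 1014, 2203 and 2347 against 1598, 1356, 2786 and 2867. Its arrays overlapped and split by kit, and its rise of 0.33 ± 0.13 (adjusted p 0.0309) was not called without the kit term (0.415), within either kit (0.231 and 0.0876), with a replicate block (0.22) or without the 2 small-sample activated arrays (0.177). Leaving out QSC replicate 2 (0.077), QSC replicate 3 (0.0611), ASC replicate 1 (0.0963) or ASC replicate 4 (0.056) ended the call as well. The rise of Ndufs8 was not called without the kit term (0.0703) or with probe sets ending in _x_at or _s_at left out (0.251).

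Ndufab1, the acyl carrier protein that also serves mitochondrial fatty acid synthesis, had the largest rise of complex I. Its signals were 437.6, 373.6, 482.0 and 540.2 in quiescent cells, 1399, 1500, 1670 and 1530 in activated cells and 399.5, 512.0, 620.5 and 443.6 in non-myogenic cells. Every activated array lay far above all the others, 3.28-fold over quiescent cells (log2 1.71 ± 0.14, adjusted p 1.32e-07). That probe set ends in _s_at, and the other tested Ndufab1 probe set gave 0.07 (adjusted p 0.761 in the fit with probe sets ending in _x_at or _s_at left out); the mean of the gene's probe sets gave 0.50. Ndufs4, an accessory subunit of the NADH-binding module, followed with 233.9, 207.7, 298.1 and 342.1 in quiescent and 781.9, 746.1, 749.7 and 810.7 in activated cells, a log2 difference of 1.49 ± 0.16 (adjusted p 2.65e-06), and 0.52 with the mean of its probe sets. Ndufb1, 1 of the 28, had 5.71 to 38.4 in quiescent and 82.7 to 102.3 in activated arrays. Its mean over all arrays, 47.4, reached the minimum of 47.0 for testing only through the activated arrays, so that a tested Ndufb1 had to differ and its call adds nothing.

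Ndufv3, an accessory subunit next to the flavoprotein, was the exception. It had 1041, 1089, 930.6 and 1052 in quiescent cells, 662.4, 584.3, 528.8 and 523.5 in activated cells and 1004, 1339, 1638 and 1141 in non-myogenic cells. The activated arrays were the lowest and did not overlap the others, a fall of 0.83 on the log2 scale (SE 0.16, adjusted p 0.000429), with -0.76 and -0.89 within the kits. With median centring of the arrays it was no longer called. The genes that did not pass were Ndufa1, Ndufa6, Ndufb11 and Ndufc2, with log2 differences of -0.29 to 0.19. Ndufb11 (-0.29, adjusted p 0.0553) turned to 0.02 with unscaled signals and to 0.17 with median centring. With the mean of its probe sets Ndufb11 was called lower (-0.365, adjusted p 0.0276, limma), and complex I then had 2 calls lower.

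Among the complex I assembly factors, 4 of 5 genes rose and Ndufaf3 fell. Ndufaf4 had 295.3, 373.6, 511.5 and 477.4 in quiescent cells, 1091, 1460, 1109 and 1308 in activated cells and 205.2, 412.0, 378.8 and 313.4 in non-myogenic cells. The activated arrays stood above all others, 2.97-fold over quiescent cells (log2 1.57 ± 0.19, adjusted p 5.38e-06). Ndufaf5 rose by 1.40 ± 0.19 (adjusted p 1.98e-05). Ndufaf3 had 126.6, 113.0, 113.7 and 161.1 against 110.4, 89.3, 85.2 and 65.8, close groups that just failed to overlap. Its log2 difference of -0.49 ± 0.17 (adjusted p 0.0187) was -0.24 on small-sample and -0.74 on two-cycle arrays, and it was not called with unscaled signals (0.402), median centring (0.772), quantile normalization (0.258), or without QSC replicate 4 (0.0709) or ASC replicate 4 (0.0761).

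Complex II, which is both a citric acid cycle enzyme and an entry to the chain, held the largest rise of all members. Sdhd, a membrane anchor subunit, had 469.6, 178.1, 518.5 and 733.7 in quiescent cells, 1796, 1991, 2551 and 2332 in activated cells and 543.3, 1157, 1113 and 902.9 in non-myogenic cells. Activated arrays were all above the rest, and the quiescent arrays spread widely, with replicate 2 lowest (475 ± 229 against 2168 ± 338, SD, n = 4). The rise was 4.92-fold (log2 2.30 ± 0.25, adjusted p 2.5e-06), with 2.64 on small-sample and 1.96 on two-cycle arrays, and 1.36 with the mean of its probe sets. Sdhb, the iron-sulfur subunit, went from 1197, 804.8, 1090 and 1396 to 2525, 2168, 3483 and 3018, without overlap, a rise of 1.31 ± 0.16 (adjusted p 7.99e-06).

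Sdhc, the other anchor subunit, rose by 0.98 ± 0.20 (adjusted p 0.000526), from 332.3 ± 77.1 to 667.3 ± 153, and by 0.62 with the mean of its probe sets. Sdha, the flavoprotein that oxidises succinate, had 2174, 2329, 2820 and 2292 in quiescent cells and 2515, 2397, 2021 and 2171 in activated cells. These arrays interleaved, and the log2 difference of -0.08 ± 0.14 (adjusted p 0.626) turned positive within the small-sample kit (0.13), with unscaled signals (0.23), with median centring (0.38), with the mean of its probe sets (0.14) and without QSC replicate 3 (0.02). The second Sdha probe set was called higher, at 0.36 (adjusted p 0.0324 over probe sets). Of the complex II assembly factors, Sdhaf2 (1.01 ± 0.15, adjusted p 3.79e-05) and Sdhaf4 (0.78 ± 0.16, adjusted p 0.000812) rose and Sdhaf1 did not pass (0.28 ± 0.16, adjusted p 0.124).

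**Figure D3:**
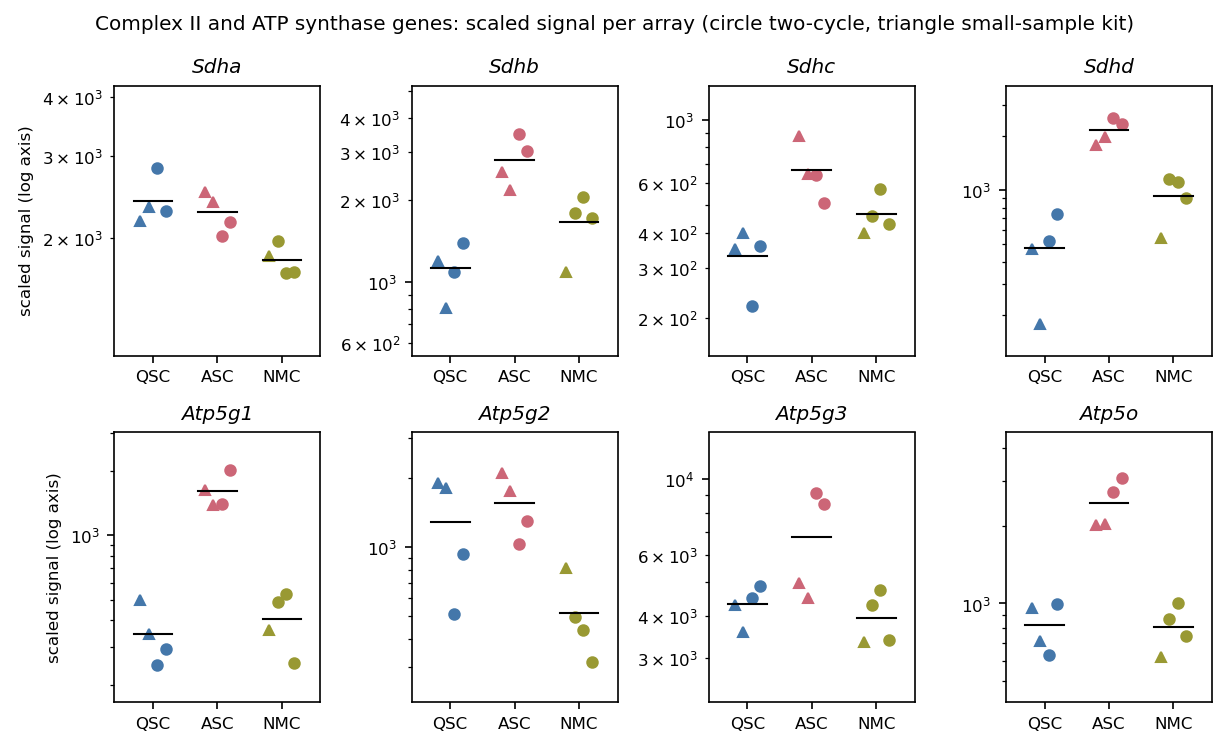
Scaled signal (log y axis) on each array for the 4 complex II genes, the 3 genes of the ATP synthase c subunit and Atp5o, by group (x axis); triangles are small-sample and circles two-cycle arrays, and black lines are group means. Sdhd and Atp5g1 in activated cells (means 2168 and 1603) lie above every other array, Sdha shows no such step, and Atp5g2 splits by kit within quiescent and activated cells.

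In complex III, 5 of 8 genes rose and 3 did not pass, with a median log2 difference of 1.01. Uqcrq, a small subunit beside cytochrome b, had 603.5, 723.2, 305.6 and 310.2 in quiescent cells and 2011, 1753, 1207 and 1292 in activated cells. The groups were apart, with the small-sample arrays above the two-cycle arrays in each, and the rise was 3.31-fold (log2 1.73 ± 0.22, adjusted p 1.24e-05). With the mean of the gene's probe sets, of which the others were below the minimum for testing, it was 0.28 and not called (adjusted p 0.256). Uqcrc1, a core protein of the complex, rose from 1132 ± 281 to 2730 ± 212 (1.29 ± 0.18, adjusted p 2.77e-05), and Uqcrfs1, the Rieske iron-sulfur protein, from 1561 ± 533 to 3252 ± 805 (1.08 ± 0.14, adjusted p 1.39e-05). Uqcrc2, the other core protein, had 1624, 2259, 1806 and 2155 against 1374, 1781, 3012 and 2549. Its activated arrays lay on both sides of the quiescent ones by kit, and its log2 difference of 0.10 ± 0.21 (adjusted p 0.681) was -0.29 and 0.49 within the kits. Uqcrh (0.26) and Uqcrb (0.17) did not pass either.

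Complex IV was the most divided, with 7 of 14 tested genes higher, 4 lower and 3 not called, and a median of 0.43, which was -0.031 with the 3 genes below the minimum signal included. Ndufa4 rose most, from 569.4, 642.4, 585.9 and 648.3 to 1679, 1504, 1843 and 1304, groups far apart, 2.53-fold (log2 1.34 ± 0.16, adjusted p 4.44e-06). Cox8a rose by 1.21 ± 0.31 (adjusted p 0.00348), with overlapping arrays and 0.54 and 1.88 within the kits. The other 5 genes that rose were Cox5b (0.91), Cox5a (0.83), Cox6b1 (0.79), Cox6c (0.78) and Cox7a2 (0.71). Averaging over probe sets ended the calls of Cox8a (0.36, adjusted p 0.11), Cox5b (0.30, adjusted p 0.0784) and Cox6c (0.25, adjusted p 0.147), and leaving out the kit term those of Cox8a (0.0508) and Cox5b (0.0757), while Cox5a was at 1.51 with the mean of its probe sets.

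Of the 4 complex IV genes that fell, Cox7c and Cox7a2l fell in a way that separated the arrays. Cox7a2l, whose product is known as an assembly factor of the supercomplex of complexes III and IV, had 3224, 3141, 5930 and 3847 in quiescent cells, 1674, 1823, 2215 and 2189 in activated cells and 1204, 1828, 2305 and 1847 in non-myogenic cells. Quiescent arrays were the highest and did not overlap either other group, and the fall in activated cells was 0.99 on the log2 scale (SE 0.16, adjusted p 8e-05). A second probe set fell as well, with a log2 difference of -0.81, and another gave -0.09 (adjusted p 0.73 over probe sets); the mean of its probe sets gave -0.63. Cox7c, a small structural subunit, had 134.7, 203.2, 147.6 and 120.8 against 59.8, 50.6, 46.1 and 58.5, a log2 difference of -1.26. Its mean over all arrays passed the minimum of 47.0 for testing only through the quiescent arrays. It is therefore among the 4 as a gene that had to differ when tested, and its difference is a description. The groups were well apart, but on a probe set whose mean signal of 78.6 was low, and the only other Cox7c probe set, with a mean of 15.8, was not tested.

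Cox4i1, the common isoform of a regulatory subunit, had 4427, 4358, 6206 and 6089 in quiescent, 3524, 3352, 4895 and 5071 in activated and 2363, 3280, 3908 and 3550 in non-myogenic cells. Quiescent and activated arrays overlapped and split by kit, and the fall of 0.33 (SE 0.12, adjusted p 0.0219) was lost in other settings, among them a replicate block (0.0862), each kit alone (0.182 and 0.115) and the fits without ASC replicate 2 (0.0513), ASC replicate 3 (0.0533) or both small-sample activated arrays (0.101). It became a log2 difference of 0.13 (adjusted p 0.374) with median centring. Cox8c, known from testis, fell by 0.57 (SE 0.13, adjusted p 0.00126) with overlapping arrays at low signal, and was not called with a replicate block (0.0675), without the kit term (0.265), with unscaled signals (0.153) or with median centring (0.353). Cox6a1 did not pass (0.16 ± 0.19), but with the mean of its probe sets it was called higher (0.56, adjusted p 0.00498, limma).

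The muscle isoforms Cox6a2 and Cox7a1, which replace Cox6a1 and Cox7a2 in striated muscle, did not pass between activated and quiescent cells. Cox6a2 had 85.8, 97.1, 104.9 and 100.8 in quiescent cells, 110.2, 103.5, 5.16 and 17.9 in activated cells and 271.9, 417.2, 447.3 and 161.7 in non-myogenic cells. The activated arrays fell into 2 pairs by kit, as the myofibre markers did, and the log2 difference was 0.20 on small-sample and -2.21 on two-cycle arrays. Cox6a2 was the 1 member for which the kits differed (interaction adjusted p 0.0258, limma), against 7.32% of all tested genes, and its fitted difference was -1.01 ± 0.46 (adjusted p 0.0633). Cox7a1 had 33.5, 10.6, 23.9 and 28.5 against 20.0, 25.7, 15.4 and 18.7, which interleaved below the minimum of 47.0 for testing; its mean over all arrays, 48.1, passed that minimum only through the non-myogenic arrays. Of the untested genes, Cox8b, the muscle isoform of Cox8a, had means of 24.7 ± 12.4, 15.2 ± 17.1 and 59.1 ± 27.5 in quiescent, activated and non-myogenic cells, Cox4i2, a lung isoform induced by low oxygen, 37.1 ± 15.0, 27.5 ± 6.5 and 24.0 ± 19.2, and Cox6b2, known from testis, 20.5 ± 13.6, 18.4 ± 8.5 and 9.71 ± 8.1.

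**Figure D4:**
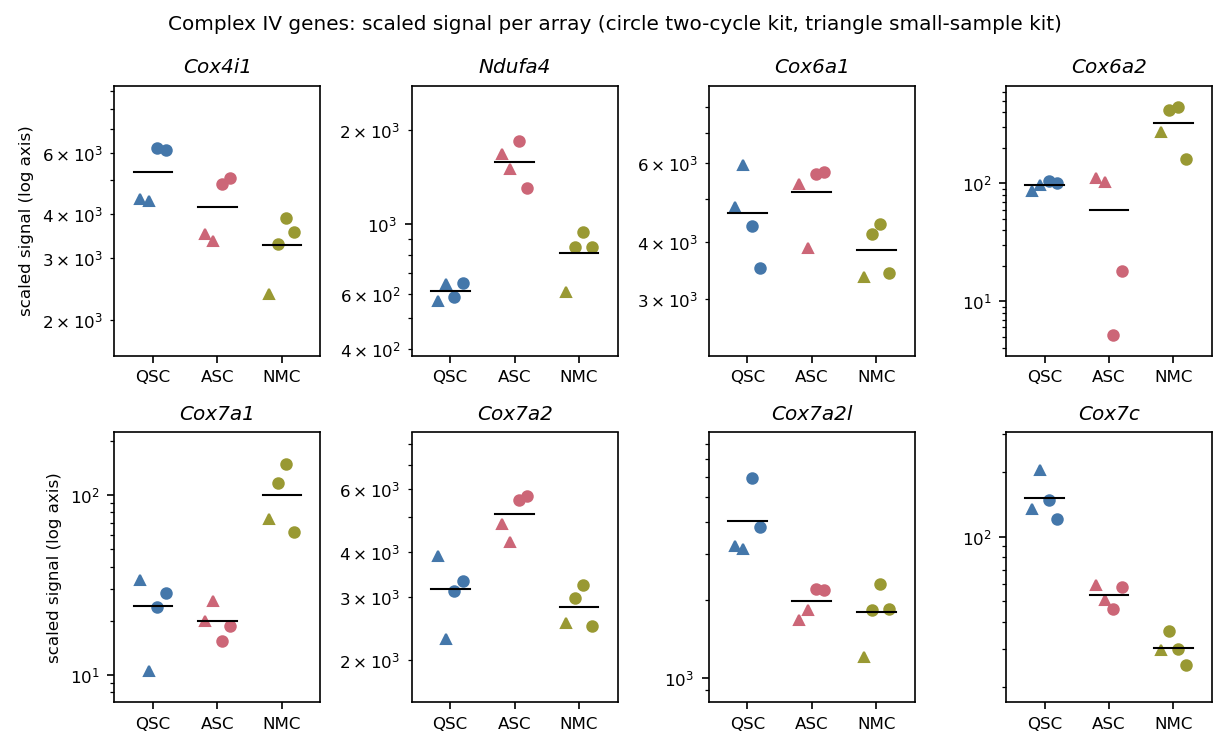
Scaled signal (log y axis) on each array for 8 complex IV genes by group (x axis); triangles are small-sample and circles two-cycle arrays, and black lines are group means. Cox6a2 and Cox7a1 are highest in non-myogenic arrays (means 324.5 and 100.2), Cox6a2 splits into 2 pairs in activated cells, and Cox7a2l and Cox7c are highest in quiescent arrays.

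In complex V, 14 of 17 genes rose, none fell and 3 did not pass, with a median of 0.68. Atp5g1, 1 of the 3 genes whose products mature into the same c subunit of the rotor ring, had 496.8, 344.4, 248.1 and 293.4 in quiescent cells, 1629, 1379, 1397 and 2007 in activated cells and 359.2, 486.5, 528.2 and 251.4 in non-myogenic cells. Activated arrays were all far above the others, a 4.58-fold rise over quiescent cells (log2 2.20 ± 0.25, adjusted p 3.38e-06). Atp5g2 had 1907, 1809, 513.4 and 939.1 against 2108, 1765, 1035 and 1298. Its arrays overlapped and lay apart by kit, and the difference of 0.39 ± 0.21 did not pass (adjusted p 0.116). Atp5g3 had 4305, 3590, 4495 and 4885 against 4969, 4494, 9145 and 8461, overlapping groups with a rise of 0.59 ± 0.17 (adjusted p 0.00663) that was 0.27 and 0.91 within the kits.

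Atp5mpl, a small subunit of the membrane part, rose from 439.0 ± 52.7 to 1411 ± 73.8 (1.66 ± 0.16, adjusted p 1.01e-06), and Atp5o, the stalk subunit that confers oligomycin sensitivity, from 824.7 ± 178 to 2456 ± 522 (1.56 ± 0.18, adjusted p 5.53e-06). The catalytic head genes rose less, with Atp5a1 at 0.80 ± 0.17 (adjusted p 0.001) and Atp5b, the beta subunit, at 0.58 (adjusted p 0.00464). Atp5c1, the central stalk gene, was called higher at 0.36 ± 0.13 (adjusted p 0.0226), but not without the kit term (0.226), with the mean of its probe sets (0.535), with a replicate block (0.0887) or without QSC replicate 4 (0.073), ASC replicate 3 (0.0644) or ASC replicate 4 (0.0507), and its other tested probe set gave -0.55. Atp5e (0.32), Atp5g2 (0.39) and Atp5h (0.20) did not pass.

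Genes around the chain, from lists outside the membership rule, moved as follows in activated against quiescent cells, where 31.8% of all tested genes were higher and 38.2% lower. Of 16 tested citric acid cycle genes, among which the pyruvate dehydrogenase complex genes Pdha1, Pdhb and Dlat were counted, 11 rose and none fell (median 0.53). The largest rises were those of the dehydrogenase gene Idh3a (1.95) and of Dlat (1.33) and Dlst (1.13), which encode other components of dehydrogenase complexes. Of 19 tested respiratory chain assembly factors outside the rule 15 rose (median 0.83), among them Atpaf2 for ATP synthase (1.93), Uqcc2 for complex III (1.92) and the copper chaperone Cox17 (1.69), and Surf1, for complex IV, fell (-0.74, adjusted p 0.00287). Of 12 carriers and pores 9 rose and none fell (median 0.74), with the outer membrane channels Vdac2 (1.19), Vdac3 (1.01) and Vdac1 (0.93).

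Genes for mitochondrial transcription, DNA copying and their regulators were mixed, with 4 of 16 tested genes higher and 4 lower (25.0% each, against the same 31.8% and 38.2% of all genes). Their median of -0.11 turned to 0.17 with unscaled signals, 0.32 with median centring and 0.09 with the mean of probe sets. Tfam, which packages mitochondrial DNA, rose (0.70, adjusted p 0.000284), as did Esrra, the ERR alpha gene (0.72, adjusted p 0.00235). Gabpa, a subunit of the ETS factor GABP, fell (-0.73, adjusted p 0.00274), as did the polymerase subunit gene Polg2 (-1.29, adjusted p 6.48e-06) and Myc (-1.56, adjusted p 0.00195). For Gabpa the kits differed, with -0.26 on small-sample and -1.205 on two-cycle arrays (interaction adjusted p 0.0416, limma). Nrf1 had -0.39 (adjusted p 0.0557), and Ppargc1a, which encodes the coactivator PGC-1 alpha, was below the minimum for testing (means 28.4, 35.8 and 19.1). Esrra and Gabpa were named after their values were seen, as were Nrf1 and Ppargc1a.

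The tested members whose promoter held the exact NRF1 core numbered 6, of which 4 rose (median 1.22), against 51 of the 65 without (median 0.80). With 1 open base, 11 of 16 rose (median 1.06), against 44 of 55 without (median 0.80). With the ETS letters 14 of 19 rose (median 1.01), against 41 of 52 without (median 0.77). All 8 members with the YY1 letters rose (median 0.94), and so did 47 of the 63 without (median 0.79). Both members with the ERR alpha letters rose. The 28 with CCAAT had 16 rises and 2 falls (median 0.47), against 39 rises and 2 falls among the 43 without (median 1.00). For NRF1 and ETS the medians were higher with a match but the shares that rose were lower. These values are descriptions.

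The comparison of non-myogenic with quiescent cells asks what sets satellite cells apart from the other cells of the tissue, both taken right after the sort. The respiratory genes did not move one way together, and the largest differences were in single genes, foremost of complex IV. Of 84 members, 12 were higher, 18 lower and 54 not called, against 52.9% of all genes called, 26.6% higher and 26.4% lower. Differences of at least 2-fold were called for 2 higher and 2 lower members, against 13.8% and 8.37% of all genes. Cox7a1 is among the higher and Cox7c among the lower ones, and both had to differ when tested. Arrays did not overlap for 13 members, against 39.7% of all genes. The median of the members was -0.04 (-0.23 on small-sample, 0.10 on two-cycle arrays), and that of all tested genes -0.03. With unscaled signals the split was 33 higher and 2 lower, with a median of 0.35 and of 0.33 over all genes, so the direction for the members together depends on the scaling. Without NMC replicate 1 it was 17 higher and 12 lower, and with a replicate block 9 higher and 10 lower.

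The largest differences upward were those of the muscle isoforms. Cox6a2, with the signals given above, was higher in all 4 non-myogenic arrays than in any quiescent array, 3.21-fold (log2 1.68 ± 0.47, adjusted p 0.0082), and Cox7a1 had 73.7, 117.0, 148.3 and 62.0 against 10.6 to 33.5 in quiescent cells, without overlap. Since Cox7a1 passed the minimum for testing only through the non-myogenic arrays, it had to differ when tested, and its signals are given as a description. Mature myofibre markers moved with them. Of 15, 7 were higher in non-myogenic cells and none lower, with the muscle creatine kinase gene Ckm at a mean of 3281 against 795.9 and the actin gene Acta1 at 6363 against 1615; their part in these differences was not tested. All 10 endothelial, all 7 tested fibroblast and 5 of 7 pericyte and smooth muscle markers were higher too.

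The largest falls, those of Cox7c and Cox7a2l, were in complex IV as well. Cox7c had 29.8, 36.3, 30.1 and 25.5 in non-myogenic cells, all under the quiescent arrays and under the minimum of 47.0. Its log2 difference of -1.83 is a description, since it passed that minimum only through the quiescent arrays. Cox7a2l fell by 1.28 (SE 0.16, adjusted p 1.87e-05, limma) and Cox4i1 by 0.82 (SE 0.12, adjusted p 6.61e-05), both without overlap. Atp5g2 of complex V, given below, fell by more than Cox4i1. Cox6b1 (-0.46) and Cox8c (-0.53) were the other complex IV genes called lower, and Cox6b1 was not called with a replicate block (0.287) or without NMC replicate 1 (0.0761) or NMC replicate 4 (0.0601). With unscaled signals the calls of Cox4i1 (0.0523), Cox6b1 (0.794) and Cox8c (0.389) ended, as did that of Cox8c without the kit term (0.124). Over complex IV this made 2 higher, Cox7a1 included, and 5 lower, Cox7c included, of 14.

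In complex II 3 genes were higher in non-myogenic cells, Sdhd (0.85 ± 0.26, adjusted p 0.013), Sdhc (0.54 ± 0.20, adjusted p 0.037) and Sdhb (0.43 ± 0.17, adjusted p 0.0439), and Sdha was lower (-0.41 ± 0.14, adjusted p 0.025). These were near the threshold. With a replicate block Sdhc (0.0948) and Sdha (0.0548) were not called, and without QSC replicate 3 neither Sdhb (0.16), Sdhc (0.163) nor Sdha (0.0969) was called. Leaving out NMC replicate 3 also ended the calls of Sdhb (0.113), Sdhc (0.103) and Sdha (0.06), as did leaving out NMC replicate 4 (0.0685, 0.0572 and 0.0583). The call of Sdhb ended too without QSC replicate 2 (0.0889), QSC replicate 4 (0.061), ASC replicate 1 (0.0548), ASC replicate 3 (0.0522), ASC replicate 4 (0.0576) or NMC replicate 2 (0.0814). That of Sdhc ended without QSC replicate 1 (0.0573) or NMC replicate 2 (0.0722), and that of Sdha without NMC replicate 1 (0.0593). Sdhd kept its call in each of these fits but not with the mean of its probe sets (0.402), which also ended the calls of Sdhc (0.352) and Sdha (0.164). Without the kit term Sdhb (0.0704) and Sdhc (0.082) were not called, and with unscaled signals Sdha was not (0.979).

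In complex I 3 of 33 genes were higher, Ndufs4 (0.83), Ndufa3 (0.74) and Ndufs5 (0.70), and 5 were lower, led by Ndufb11 (-0.67) and Ndufa10 (-0.58). The core genes Ndufs8 (-0.52) and Ndufv1 (-0.37) were among the lower ones, and neither was called with a replicate block (0.305 and 0.713) or without NMC replicate 1 (0.068 and 0.116). Ndufv1 was also lost without QSC replicate 1 (0.0641), QSC replicate 4 (0.0717), NMC replicate 2 (0.0523) or NMC replicate 4 (0.0566), and Ndufs5 without QSC replicate 3 (0.0642). With unscaled signals the calls of Ndufb11 (0.232), Ndufa10 (0.473), Ndufs8 (0.595) and Ndufv1 (0.908) ended, as those of Uqcrc2 (0.0979), Uqcrh (0.285), Atp5g2 (0.0764) and Atp5l (0.448) did in the other complexes. In complex III Uqcrq was higher (0.75 ± 0.23, adjusted p 0.0138), though -0.16 on small-sample arrays and not called with the mean of its probe sets (0.852), without the kit term (0.0848), with a replicate block (0.0609) or without QSC replicate 3 (0.0589) or QSC replicate 4 (0.0588). Uqcrc2 (-0.81) and Uqcrh (-0.68) were lower. In complex V Atp5md was higher (0.56), though not without QSC replicate 2 (0.052) or NMC replicate 3 (0.0641), and 5 genes were lower, led by Atp5g2 (-0.94 ± 0.22, adjusted p 0.00265), which had 808.7, 498.4, 438.2 and 316.5 in non-myogenic cells and overlapped quiescent cells, and Atp5l (-0.64), which was not called without QSC replicate 4 (0.0905) or NMC replicate 1 (0.0503). Of the assembly factors, Ndufaf5 (0.49) and Sdhaf2 (0.53) were higher, but Ndufaf5 was called neither with a replicate block (0.101) nor without any 1 of QSC replicates 2, 3 and 4, ASC replicate 2 and NMC replicates 1 to 4 (0.0542 to 0.179).

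The regulator list stood lower in non-myogenic cells, with 11 of 16 tested genes called lower (68.8%, against 26.4% of all genes) and none higher (median -0.69, and the median of all genes -0.03). Ppargc1b, a coactivator of the PGC-1 family, was at -1.36 (adjusted p 0.000125), Pprc1, of the same family, at -1.25 (adjusted p 0.000233), and Ssbp1, which coats single-stranded mitochondrial DNA, at -1.08 (adjusted p 0.00011). Of the citric acid cycle genes 6 of 16 were lower (37.5%) and none higher, among them the citrate synthase gene Cs (-0.68), and among carriers 3 of 12 were lower (25.0%, near the 26.4% of all genes), with cytochrome c (Cycs) at -0.96, and Etfb was higher (0.44). Of the assembly factors 4 of 19 were lower (21.1%, under that 26.4%), led by Lrpprc (-0.95), which stabilises mitochondrial mRNAs, and Uqcc2 was higher (1.69).

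The comparison of activated with non-myogenic cells shares its arrays with both others, so its values are given side by side and not as further support. Of 84 members 68 were higher and 4 lower, against 72.4% of all tested genes called, 34.1% higher and 38.3% lower, and 12 were not called. Differences of at least 2-fold were called for 22 higher and 3 lower members, against 18.5% and 24.8%. The median was 0.78, against -0.08 for all genes, and 52 members did not overlap, against 61.6% of all genes. Without NMC replicate 1 the counts were 62 and 4. By complex the higher and lower counts were 28 and 1 of 33 in complex I, 3 and 0 of 4 in complex II, 7 and 0 of 8 in complex III, 9 and 2 of 14 in complex IV, and 16 and 0 of 17 in complex V. Ndufb1 is in the 68, the 22 and the 28 only as a gene that had to differ when tested. It passed the minimum signal only through the activated arrays.

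The largest rises over non-myogenic cells were those of Ndufaf4 (2.01 ± 0.19, 4.03-fold, adjusted p 4.24e-07), Atp5g1 (1.95 ± 0.25, adjusted p 9.89e-06), Atp5mpl (1.70 ± 0.17, adjusted p 7.06e-07) and Ndufab1 (1.68 ± 0.14, adjusted p 1.23e-07). The 4 lower genes were Cox6a2 (-2.69 ± 0.47, adjusted p 0.000143), Cox7a1, Ndufv3 (-1.12 ± 0.16, adjusted p 3.22e-05) and Ndufaf3 (-0.82 ± 0.17, adjusted p 0.000675). Cox7a1 is in this count only as a gene that had to differ when tested, for the reason given above. For Cox6a2 the kits gave -1.24 and -3.69, and 11 of 15 myofibre markers were lower in activated cells, so the fall of Cox6a2 moved with them, which was not tested further. Cox7a2l and Cox8c did not pass in this comparison.

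Isoform balance was read as the log2 ratio of 2 genes within each array, compared between groups only, for 9 pairs and 27 comparisons with an exact two-sided permutation test. With 4 arrays against 4 its smallest p is 0.0286, and none of the 27 was under 0.05 after adjustment (lowest 0.0643). The ratio of Cox7a1 to Cox7a2 was -6.35, -6.51, -6.34 and -6.27 in quiescent cells, -7.11, -6.73, -7.54 and -7.43 in activated cells and -4.85, -4.50, -4.32 and -5.02 in non-myogenic cells. These values are a description, since Cox7a1 was below the minimum for testing in quiescent and activated cells. For Cox7a2l against Cox7a2 the groups did not overlap in any of the 3 comparisons, each with exact permutation p 0.0286. The means were 0.33 ± 0.50, -1.36 ± 0.12 and -0.67 ± 0.29 (SD, n = 4), so that Cox7a2l was lowest relative to Cox7a2 in activated cells. Supercomplexes were not measured.

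Atp5g1 against Atp5g2 shifted by 1.81 from quiescent to activated cells, with 1.77 and 1.84 within the kits, and Atp5g1 against Atp5g3 by 1.61, with 1.56 and 1.66, both without overlap (exact permutation p 0.0286). Both c subunit ratios thus moved alike in the 2 kits, although the Atp5g2 signal itself lay apart by kit. Cox6a2 against Cox6a1 was -3.59 ± 0.48 in non-myogenic cells, above the -5.36 ± 0.37 of quiescent and the -6.52 ± 1.52 of activated cells, and the activated arrays split by kit again.

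Probe sets of a gene did not always move alike. Counted one by one, 145 of the 160 probe sets were tested, and between activated and quiescent cells 104 rose and 12 fell, against 30.7% and 37.6% of all probe sets. Of 42 genes with several tested probe sets, 23 had the same call for all, 15 were mixed and 4 had calls in both directions, namely Atp5c1, Cox5b, Ndufs4 and Ndufs8. In Cox5b, which encodes a zinc-binding subunit, 4 probe sets rose by 0.77 to 1.03 and another fell by 1.44, from a mean of 204.3 to 66.6. In Ndufs8 the probe set used rose by 0.72 and another fell by 1.03 (218.1 to 96.5), and in Ndufs4 the one used rose by 1.49 while another fell by 0.47 (49.9 to 31.7).

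The probe set used for the gene had a lower log2 difference than the mean of the others in 20 of the 42 genes. For Atp5pb, a peripheral stalk gene, the probe set used rose by 0.56 and the other by 2.20, and for Cox5a the one used rose by 0.83 and the others by 1.77 and 1.92. Between non-myogenic and quiescent cells 16 probe sets were higher and 29 lower, against 24.0% and 27.4% of all, and Sdhd had calls both ways (0.85 and -0.55). Between activated and non-myogenic cells 114 were higher and 5 lower, against 34.1% and 35.9%, and Ndufs4 had calls both ways. Of the 160 member probe sets, 43 end in _x_at or _s_at, which marks probes that can bind transcripts of related genes, so signals of families with near-identical copies are uncertain there.

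**Figure D5:**
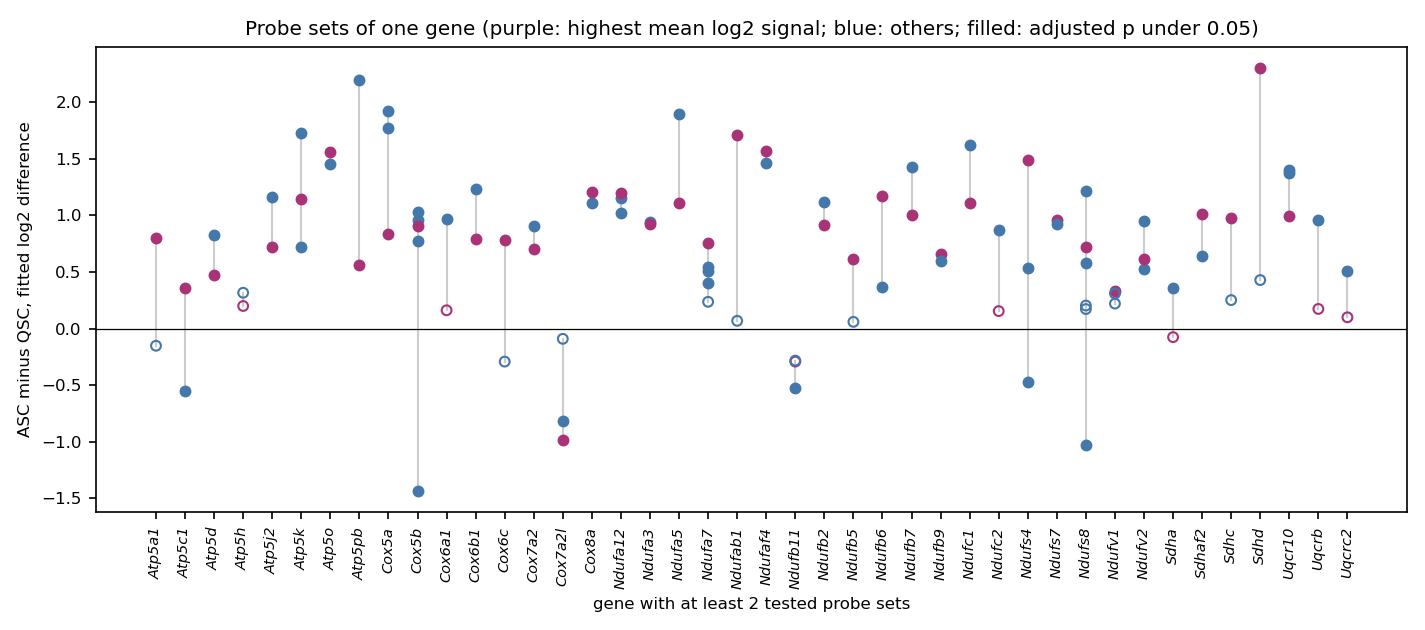
Fitted log2 difference between activated and quiescent cells (y axis) for each tested probe set of the 42 genes with several (x axis); purple marks the probe set that represents the gene, blue the others, and filled points had an adjusted p under 0.05. Filled points lie on both sides of 0 for Atp5c1, Cox5b, Ndufs4 and Ndufs8.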

How the data were processed

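The data were the deposited signal values of 12 Affymetrix Mouse 430A arrays, as 1 table of linear intensity per probe set. The authors computed these intensities with MAS5, per the submitters' processing notes, with the version not given in the sources used here. Any scaling before deposit is not stated. Groups and kits were taken from the sample labels. Probe sets were named through the platform annotation, with 691 probe sets of several genes and 1555 of none left out of gene names.

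Each array was scaled to a common mean of 235.14 after trimming 2% at either tail, and log2(signal + 14.7) was taken, which shrinks the differences of dim probe sets. Genes with a mean scaled signal of at least 47.0 (7960 genes, 1 probe set each) were fitted in limma 3.58.1 (R 4.3.3) with group and kit as terms over all 12 arrays, which left 8 residual degrees of freedom. P-values were adjusted over all 7960 genes by Benjamini-Hochberg and called under 0.05. Fold changes are on the log2(signal + 14.7) scale. The number of arrays limits the precision. With simulated data made like the 12 arrays, the fit of ASC against QSC was tried on known changes in 200 of 7960 genes. Of those changed 1.5-fold 32% were called, of those changed 2-fold 85% and of those changed 4-fold 98%. In the data 70% of all genes were called in this comparison. The Benjamini-Hochberg cut-off thus differs from that of the simulation, and these rates do not give the sensitivity of the calls above. Isoform ratios were compared with exact permutation tests, and figures and tables were made with Python 3.11.15 and matplotlib 3.10.9.

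The members, lists and tests were chosen with earlier results of these data known. Named were all tested genes of complexes II and IV, the c subunit and core complex I genes, per complex and comparison the 2 called genes with the largest rise and fall, called genes against most of their complex, and genes with probe sets called both ways; per other list, up to 4 genes with the smallest adjusted p and called genes against most of the list. Other genes were named after their values were seen. Same-numbered quiescent and activated arrays deviated together (correlations of 0.146 to 0.279), but they share a kit, and within a kit the correlations were -0.0285 and -0.0887, so the numbers were not taken as pairs. Alternatives covered the kit, scaling, pseudocount, filter, probe set rule, variance model, replicate block and left-out arrays.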

Additional observations from a re-analysis of the deposited data

Results flagged for a closer look

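In 7 of 150 combinations of a named member and a group, 1 array lay far from the other 3 by Dixon's criterion, on the log2(signal + 14.7) scale. Chance flags about 1 in 20 groups. Of the 7, 4 concerned NMC replicate 1, the only small-sample array of its group. It had 7.50 for Atp5l (the others 7.77 to 7.81), 11.27 for Cox5b (12.74 to 12.82), 9.42 for Ndufs3 (10.12 to 10.22) and 9.70 for Ndufv1 (10.81 to 10.87). ASC replicate 2 had 11.93 for Cox6a1 (12.40 to 12.49) and 8.89 for Sdhaf2 (8.34 to 8.40). QSC replicate 1 had 9.24 for Ndufs1 (9.84 to 9.90). NMC replicate 1 and its kit cannot be told apart.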

How the results depend on the processing

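Between activated and quiescent cells the members' median stayed positive under every alternative, at 1.10 with unscaled signals and 1.25 with median centring, which moved the median of all tested genes from -0.11 to 0.14 and 0.29; calls lower numbered 3 on small-sample arrays, 3 unscaled and 2 with median centring, and counting probe sets gave 104 higher and 12 lower. With 1 array left out, calls higher ranged from 60 to 63, and the median from 0.74 to 0.87. Without the filter the complex IV median was -0.031, and the regulators' median was 0.17 unscaled, 0.32 with median centring and 0.092 with mean probe sets. Signs also turned for Atp5c1 (-0.10 with mean probe sets, -0.55 without _x_at and _s_at sets), for Cox4i1 (0.13, median centring), on small-sample arrays for Cox6a1 (-0.22), Cox6a2 (0.20), Cox7a1 (0.10), Sdha (0.13) and Uqcrc2 (-0.29), unscaled for Cox7a1 (0.10), Ndufb11 (0.016) and Sdha (0.23), with median centring for Cox7a1 (0.25), Ndufb11 (0.17) and Sdha (0.38), for Cox7a1 with quantile normalization (0.29), for Sdha with mean probe sets (0.14) and for Uqcrh without the 2 small-sample activated arrays (-0.042). With 1 array left out, values on both sides of 0 were found for Cox7a1 (-0.33 to 0.022, positive without QSC replicate 1), Sdha (-0.13 to 0.019, positive without QSC replicate 3), Uqcrc2 (-0.029 to 0.27, negative without QSC replicate 3 or ASC replicate 3) and the log2 ratio of Atp5g2 to Atp5g3 (-0.59 to 0.15). The causes were not tested.

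Between non-myogenic and quiescent cells calls were 8 lower without a kit term, 1 higher and 6 lower on small-sample arrays (median -0.23, complex I -0.24), 29 lower over probe sets, and 33 higher and 2 lower unscaled, where the median was 0.35 (0.33 for all genes) and complexes III (0.31), IV (0.24), V (0.26), the citric acid cycle (0.048), assembly factors (0.28), carriers (0.38), Atp5c1 (0.003) and Ndufv1 (0.031) turned positive. Ndufa10 was 0.28 with mean probe sets and Uqcrq -0.16 on small-sample arrays. With 1 array left out, calls ranged from 8 to 17 higher and 12 to 19 lower. Between activated and non-myogenic cells calls lower were 2 on small-sample arrays, calls higher 114 over probe sets, the median 1.20 with median centring, and Atp5c1 -0.31 without _x_at and _s_at sets.

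With the replicate block in place of the kit term, calls were 59 higher and 4 lower between activated and quiescent, 9 and 10 between non-myogenic and quiescent, and 58 and 4 between activated and non-myogenic cells. Dim probe sets such as those of Cox7c, Cox7a1 and Ndufb1 limit what their differences can show.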
